A study of Mus musculus with 12 samples.

Results

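Accessible chromatin was examined around 9 mouse genes that regulate NAD-dependent deacetylation, FoxO transcription and the response to oxidative stress: Sirt1, Sirt2, Sirt6, Sirt7, Foxo1, Foxo3, Nfe2l2, Keap1 and Txnip. The ATAC-seq summits of 12 hematopoietic stem cell (HSC) libraries were widened by 250 bp on each side and merged where they overlapped, which gave 71006 regions, and the 50 regions that lay within a member gene or within 10 kb of it were taken as members. ATAC-seq marks open DNA by the insertion of sequencing adapters by a transposase. The HSCs had been isolated from bone marrow of C57BL/6 mice, with 3 libraries in each of 4 groups: Young WT (3 months old, wild-type), Young Mlkl-/- (3 months old), Aged WT (18 months old, wild-type) and Aged Mlkl-/- (18 months old). Mlkl encodes the pseudokinase that executes necroptosis. The labels give no allele beyond Mlkl-/- and no treatment. The methods describe each library as made from the HSCs of several mice joined together (more mice at 3 than at 18 months), so a replicate is a pool and p-values measure the spread between pools. The comparison by age asks which of these regions differ between old and young HSCs, and the comparison by genotype asks whether they differ when Mlkl is lost.

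Sirtuins are enzymes that remove acyl groups from proteins at the expense of NAD, which links them to the energy state of the cell. SIRT1, SIRT6 and SIRT7 act mainly in the nucleus, SIRT7 with a preference for the nucleolus, and SIRT2 acts mainly in the cytoplasm. FOXO1 and FOXO3 are transcription factors that insulin and growth factor signalling holds in the cytoplasm and that sirtuins can deacetylate. FOXO3 is known as a factor that HSCs need for quiescence and for control of reactive oxygen species. Nfe2l2 encodes NRF2, the main activator of antioxidant genes, and Keap1 encodes the adaptor that marks NRF2 for degradation until oxidants modify it. Txnip encodes an arrestin-like protein that binds and inhibits thioredoxin and limits glucose uptake.

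The lists held between 35714 and 61495 summits with a score of at least 3, on the −log10 scale of the peak caller's q-values. List length moved with age: the mean was 43015 ± 5015 summits in Young WT and 46366 ± 10342 in Young Mlkl-/-, against 55040 ± 3847 in Aged WT and 55460 ± 7523 in Aged Mlkl-/- (SD, n = 3). Longer lists give more calls, so each region is described by its calls in the whole lists and by its rank in lists cut to the same 35714 summits. The files give no read counts, and the sequencing depth is unknown. Summits within 1 kb of the starts of 4 single-copy Y genes were present in 3 of 6 young and in 0 of 6 aged lists. The region at the Mlkl start was called in 6 of 6 WT and in 6 of 6 Mlkl-/- lists, and an open start does not check a deletion. Among the HSC markers, the starts of Kit and Hlf were called in all 12 lists, that of Procr in 9 and that of Ly6a in 6. No call lay at the annotated starts of Slamf1, Mecom and Gata2, although 2, 5 and 2 other regions within 10 kb of these genes were called in all 12 lists. Of 18 markers of other cells, 11 were at 0 in all 12 lists, among them all 9 B cell, T cell and neutrophil markers, although other regions within 10 kb of Cd79a, Pax5, Cd3d and Elane were called in all 12 lists. The erythroid marker Klf1 was called in 12 lists, the stromal marker Col1a1 in 11 and the macrophage marker Cd68 in 7. Between 1 and 3 of 3 erythroid marker starts were called per young list and between 2 and 3 per aged list, against exactly 1 of 3 stromal ones per young list and between 1 and 3 per aged list. The part of other cells in the results was not tested.

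Sequences are shown for 3 regions whose calls leaned to 1 age, and for 2 starts that carried motifs of interest to these pathways. None of the 3 was past the threshold in the main comparison by age, and the Sirt2 region was not tested by rank. The first 3 are the 201 bp around the summit (GRCm38.p6, the chromosomes of mm10, plus strand), all in introns. The other 2 are the 200 bases before the transcription start that 3 of the 4 protein-coding Sirt1 transcripts use (within 3 bp of each other, minus strand) and before the Txnip start (plus strand). Capitals mark matches on either strand to any of 9 short motifs, of which 5 had matches here. The FOXO motif was taken as GTAAACA. The antioxidant response element, to which NRF2 binds together with a small MAF protein, was taken as TGACNNNGC, and the E-box, the site of MYC and related factors, as CACGTG. The letters for GATA factors were AGATAA. Those for AP-1, the dimer of FOS and JUN proteins, were TGANTCA.
Foxo3 intron, chr10:42251372-42251572: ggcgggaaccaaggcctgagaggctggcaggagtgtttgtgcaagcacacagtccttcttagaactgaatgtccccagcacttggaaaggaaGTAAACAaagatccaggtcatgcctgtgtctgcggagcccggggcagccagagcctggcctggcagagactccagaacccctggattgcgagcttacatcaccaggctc
Foxo1 intron, chr3:52309013-52309213: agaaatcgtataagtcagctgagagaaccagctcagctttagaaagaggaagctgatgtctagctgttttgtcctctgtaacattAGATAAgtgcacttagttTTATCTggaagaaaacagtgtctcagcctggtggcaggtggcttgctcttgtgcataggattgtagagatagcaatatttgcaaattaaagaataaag
Sirt2 intron, chr7:28780982-28781182: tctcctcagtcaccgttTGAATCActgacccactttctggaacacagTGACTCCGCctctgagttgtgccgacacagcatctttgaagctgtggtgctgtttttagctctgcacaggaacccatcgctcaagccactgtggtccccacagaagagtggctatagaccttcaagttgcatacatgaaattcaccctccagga
Sirt1 upstream, chr10:63339036-63339235: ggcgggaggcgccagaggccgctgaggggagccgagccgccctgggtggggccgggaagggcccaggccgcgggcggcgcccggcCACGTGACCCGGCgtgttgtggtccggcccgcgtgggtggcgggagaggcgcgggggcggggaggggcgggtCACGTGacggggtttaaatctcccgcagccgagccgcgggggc
Txnip upstream, chr3:96557757-96557956: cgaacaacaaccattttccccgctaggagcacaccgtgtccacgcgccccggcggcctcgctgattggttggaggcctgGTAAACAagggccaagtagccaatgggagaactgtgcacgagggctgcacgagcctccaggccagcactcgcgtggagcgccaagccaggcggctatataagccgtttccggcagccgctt
The Foxo3 intron and the Txnip start each held 1 exact FOXO motif, at positions 93 and 80 counted from the first base shown. The Sirt1 sequence held 2 E-boxes, at positions 86 and 158, and 1 antioxidant response element, at position 90, that overlaps the first of them. The Foxo1 intron held 2 GATA motifs, on opposite strands, and the Sirt2 intron held an AP-1 motif and an antioxidant response element. A match is a description of the letters and no evidence of binding. Every sequence shown holds a motif, so the set does not stand for the regions that leaned by age. The Foxo1 region at 75.4 kb and the Keap1 regions at 2.19 and 18.7 kb, with an unadjusted p under 0.05 for age, held none. The Sirt2 region at 13.5 kb and the Foxo3 region at 32.1 kb, also under 0.05, held 1 or more.

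Of the 50 regions, 18 were called in all 12 lists, 22 in 3 to 11 lists and 10 in 1 or 2 lists. The share of all 71006 regions called in all 12 lists was 28.6%. The members were unevenly spread over the genes, with 9 regions at Foxo1 and at Foxo3, 7 at Keap1, 5 each at Sirt1, Sirt2, Sirt7 and Nfe2l2, 3 at Txnip and 2 at Sirt6. By the position of the summit, 24 lay in introns, 15 in exons and 11 outside genes, and 13 lay within 1 kb of the start of another gene, so that a region can belong to a neighbour. For the rank test, 30 regions had enough calls in the lists of equal length (at least 3) and 20 did not. In these lists all regions were ranked by score, and ranks were turned into normal scores, a scale on which the regions not called share a value between −0.57 and −0.52 and the strongest regions of the genome lie above 2. Normal scores describe relative rank and not the amount of open chromatin.

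At the gene starts, 6 of the 9 regions were called in all 12 lists (Sirt2, Sirt6, Foxo3, Nfe2l2, Keap1 and Txnip), against 46.7% of 21938 protein-coding gene starts. Among the sirtuins, the Sirt2 start was the strongest region of the whole set. It lay at chr7:28766093-28766910, with its summit in the first exon of Nfkbib, which encodes an inhibitor of NF-κB and starts within 1 kb. Its normal scores were 2.32, 2.06 and 1.68 for Young WT, 1.83, 1.94 and 2.47 for Young Mlkl-/-, 1.74, 2.53 and 2.16 for Aged WT, and 2.25, 2.51 and 2.92 for the Aged Mlkl-/- libraries. All 4 groups overlapped. The Sirt6 start (chr10:81627275-81628122), in the UTR of exon 1 and near the start of Ankrd24, had scores of 1.13, 1.39 and 1.75 for Young WT, 1.2, 0.97 and 1.01 for Young Mlkl-/-, 0.80, 1.01 and 0.73 for Aged WT, and 1.19, 1.0 and 1.16 for the Aged Mlkl-/- libraries. The 3 Aged WT values were below the 3 Young WT values, whereas the Mlkl-/- groups overlapped.

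The outermost annotated start of Sirt1, used by 1 of its 4 protein-coding transcripts, was called in only 3 lists, with 1 from Young Mlkl-/- and 2 from Aged WT. The other 3 transcripts begin 42.6 kb further along the gene, in a region at chr10:63338256-63339598 that was called in all 12 lists. Its summit lay 62 to 65 bp upstream of these starts in DNA of 79.6% GC, and the region was singled out after its values were seen. Its normal scores were 1.60, 1.34 and 1.59 for Young WT, 1.27, 1.19 and 1.27 for Young Mlkl-/-, 1.05, 1.79 and 1.29 for Aged WT, and 1.59, 1.08 and 1.27 for the Aged Mlkl-/- libraries. The aged libraries spanned the young ones, with an age change of −0.03 ± 0.14 (SE). A further Sirt1 region 1.11 kb upstream of the outer start, in an intron of Dnajc12 within 1 kb of that gene's start, was also called in all 12 lists. The Sirt7 start (chr11:120624326-120625256) was called in 6 lists (1 Young WT, 2 Young Mlkl-/-, 2 Aged WT, 1 Aged Mlkl-/-) but in only 1 list of equal length, and so it stood near the limit of detection in every group.

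Of the FoxO genes, Foxo3 had a weak region at its start and a stronger one 1.01 kb upstream. At the start (chr10:42276359-42277098) the normal scores were 0.38, 0.27 and 0.39 for Young WT, 0.54, −0.57 and 0.38 for Young Mlkl-/-, 0.82, 0.64 and 0.51 for Aged WT, and 0.71, 0.59 and 0.22 for the Aged Mlkl-/- libraries. The upstream region (chr10:42277500-42278494) had a mean of 1.68 ± 0.24 (SD, n = 12) and its 12 values lay between 1.31 and 2.04. The Foxo1 start (chr3:52267726-52268709) was called in every list except Young Mlkl-/- 3, with scores of 0.45, 0.78 and 0.47 for Young WT, 0.42, 0.62 and −0.52 for Young Mlkl-/-, 0.87, 0.89 and 0.46 for Aged WT, and 0.64, 0.35 and 0.53 for the Aged Mlkl-/- libraries. Young Mlkl-/- 3 had the shortest list and the fewest member regions (22, against 28 to 38 in the other lists).

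The redox regulators were open at their starts in every list. The Nfe2l2 start was the broadest member region (2065 bp, chr2:75703298-75705362) and varied least among the starts, with a mean of 1.17 ± 0.17 (SD, n = 12) and values from 0.95 to 1.54. The Keap1 start (chr9:21238448-21239503) was weaker, with a mean of 0.61 ± 0.22 and values from 0.28 to 1.0. The Txnip start (chr3:96557560-96558135) was among the top 2.22 to 7.76% of all regions in every list, and its summit lay in an exon of Gm15441, a long non-coding RNA annotated on the opposite strand. Its scores were 2.01, 1.68 and 2.00 for Young WT, 1.43, 1.71 and 1.44 for Young Mlkl-/-, 1.75, 1.43 and 1.74 for Aged WT, and 1.62, 1.42 and 1.88 for the Aged Mlkl-/- libraries. The groups overlapped. Over the 12 libraries the order of the starts was Sirt2 (2.2 ± 0.37), Txnip (1.68 ± 0.22), the common Sirt1 start (1.36 ± 0.23), Nfe2l2, Sirt6 (1.11 ± 0.27), Keap1, Foxo1 (0.50 ± 0.37), Foxo3 (0.41 ± 0.36), the outer Sirt1 start and Sirt7. Neighbours in this order differed by less than the larger of their SDs, except for Sirt2 and Txnip, Txnip and Sirt1, Sirt6 and Keap1, and Foxo3 and the outer Sirt1 start.

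**Figure D1:**
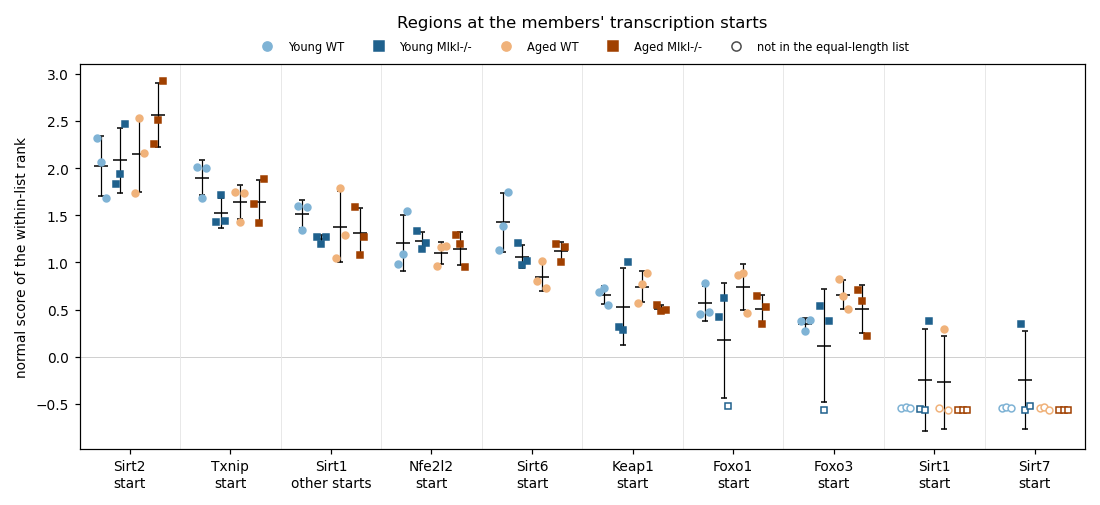
Normal scores of the regions at the members' starts, with 3 libraries per group as points (open where the region was not in the list of equal length), and the mean and SD as bars. Sirt2 and Txnip lie highest in every group, and Sirt7 and the outer Sirt1 start lie at the value of regions not called in all but 1 and 2 libraries, respectively.

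With age, none of the 30 member regions tested passed an adjusted p of 0.01 over both genotypes (0 of 30, limma with Benjamini-Hochberg adjustment over 37890 regions), against 2.71% of all regions tested (646 higher and 380 lower in aged HSCs). The lowest adjusted p among the members was 0.0233. In WT alone 0 of 30 passed, against 0.193% of all regions, and in Mlkl-/- alone 0 of 30, against 0.15%. At an unadjusted p under 0.05, 7 of 30 members differed by age over both genotypes, against 22.2% of all regions, 4 in WT against 14.6%, and 3 in Mlkl-/- against 14.4%. With a score minimum of 5 the first count was 3 of 27 members, against 7210 of 32622 regions. Of the 7, the Foxo1 region at 40.8 kb and the Sirt2 region at 13.5 kb had no call in an aged list of equal length. Both met the minimum of 3 lists through young lists alone, which fixed their sign. The Foxo3 region at 25.3 kb and the Keap1 region at 2.19 kb met it only through aged lists, with 1 young list each. The 30 changes had a median of 0.06, against −0.01 over all regions, and 19 were positive. On simulated data of the same size, 53 of 100 regions moved by 1 on this scale and 98 of 100 moved by 2 were recovered for this comparison. A change the size of most seen here could thus be missed. The simulated means and spread came from the whole lists and not from those of equal length, so these shares are a rough guide. Comparisons by genotype were not simulated.

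**Figure D2:**
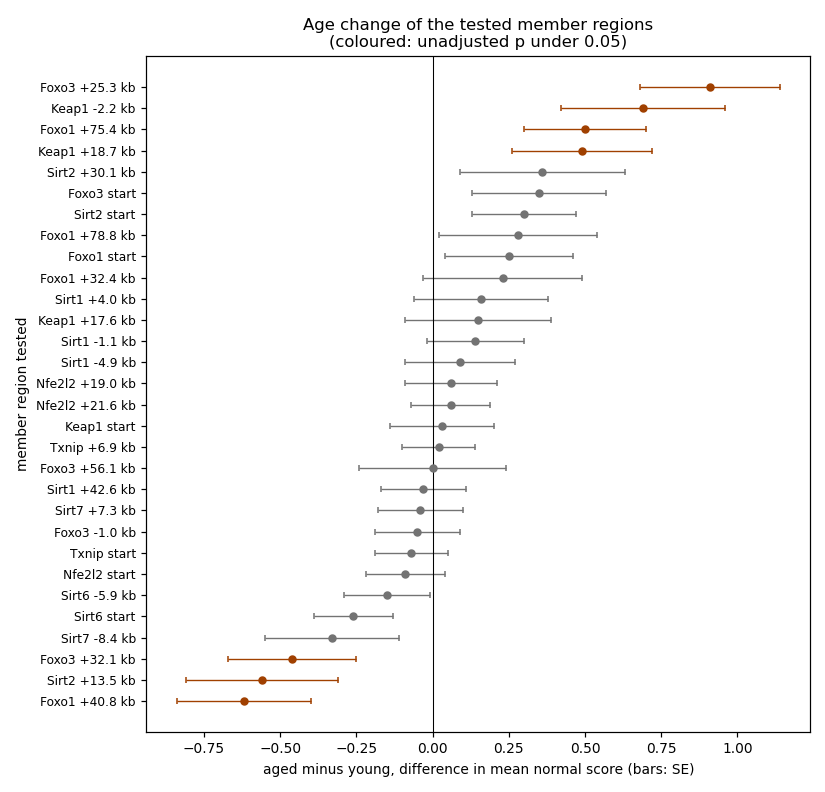
Difference in mean normal score, aged minus young, over both genotypes for the 30 member regions tested, with bars for the SE and colour for an unadjusted p under 0.05. The differences run from −0.62 (Foxo1, 40.8 kb) to 0.91 (Foxo3, 25.3 kb), and the 7 coloured regions lie at both ends.

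By calls in the whole lists, 20 of the 50 regions were called in more aged than young lists, 7 in more young lists and 23 in as many. The members had 175 calls in young and 202 in aged lists, a ratio of 1.15, against 1.23 over all regions. In lists of equal length the ratio was 1.07 for the members and 1.02 over all regions, with 16 regions in more aged, 10 in more young and 24 in as many lists. Per list, 29.0 ± 1.0 members were called for Young WT and 29.3 ± 6.66 for Young Mlkl-/-, against 33.0 ± 4.58 for Aged WT and 34.3 ± 3.51 for Aged Mlkl-/- (SD, n = 3). The groups with the longer lists had the more member calls.

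The member region that ranked first by age lay in a Foxo3 intron, 25.3 kb from the start (chr10:42251164-42251780), and is the one whose sequence holds the FOXO motif. Only 1 of the 6 young lists held it, against 6 of 6 aged lists. Its normal scores were −0.54, −0.53 and 0.43 in Young WT and −0.55, −0.57 and −0.52 in Young Mlkl-/-, where the only call was in Young WT 3. They were 0.55, 0.36 and 0.60 in Aged WT and 0.76, 0.58 and 0.31 in Aged Mlkl-/-. The 6 aged libraries stood above 5 of the 6 young ones, and in the aged lists the region was among the top 22.4 to 37.7%. The age change was 0.91 ± 0.23 (SE), with an unadjusted p of 0.00109 and an adjusted p of 0.0233, which misses the threshold of 0.01. It was 0.72 ± 0.33 in WT (adjusted p = 0.329) and 1.10 ± 0.33 in Mlkl-/- (adjusted p = 0.0979). Without reduction of the lists to 1 length the change was 1.06 ± 0.25 and passed (adjusted p = 0.00569). With the length of the list as a covariate it was 1.07 ± 0.32 (adjusted p = 0.0902), and with the presence of Y summits as a covariate 0.78 ± 0.29 (adjusted p = 0.147). At a score minimum of 5 it was 0.56 ± 0.27 (adjusted p = 0.237). The adjusted p ranged from 0.00569 to 0.237 over 26 alternatives, and between 0.0104 and 0.0623 when 1 library was left out. In the lists of equal length, too, 1 young and 6 aged ones held the region. It met the minimum of 3 lists only through aged lists, where it is high, so no conclusion is drawn from these p-values.

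Among 10781 tested regions at protein-coding starts, those with the 12-library pattern most like this Foxo3 region were at Tnfaip6 (Pearson's r = 0.97), Fa2h (r = 0.934) and Zfp503 (r = 0.90). The points are the 12 libraries, which differ in list length and age together, and the values describe likeness only. Tnfaip6 was called in 2 young and 6 aged lists, Fa2h in all 12 and Zfp503 in 3 young and 6 aged lists.

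Elsewhere in Foxo3, a region 32.1 kb from the start (chr10:42244384-42244990) was called in all 12 lists and had the opposite sign. Its scores were 1.01, 0.73 and 0.82 for Young WT, 1.02, 0.64 and 0.58 for Young Mlkl-/-, 0.41, −0.53 and 0.57 for Aged WT, and 0.24, 0.55 and 0.81 for the Aged Mlkl-/- libraries. The age change was −0.46 ± 0.21 (unadjusted p = 0.0414, adjusted p = 0.207), and the ages overlapped through Aged Mlkl-/- 3. Without Aged WT 2, the only library that lacked the region at equal length, it was −0.29 ± 0.17 (adjusted p = 0.34). The 2 intronic Foxo3 regions thus had age differences of opposite sign, and neither passed the threshold.

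Foxo1 had no region called in all 12 lists. An intronic region 40.8 kb from the start (chr3:52308834-52309400), the one with 2 GATA motifs, had calls in 3 Young WT lists, 2 Young Mlkl-/- lists, 1 Aged WT list and 0 Aged Mlkl-/- lists. Its normal scores were 0.44, 0.24 and 0.23 in Young WT and −0.55, 0.58 and −0.52 in Young Mlkl-/-, and all 6 aged lists of equal length lacked it. The age change was −0.62 ± 0.22 (unadjusted p = 0.0121, adjusted p = 0.0996), and −0.90 ± 0.25 with lists of unequal length (adjusted p = 0.0199). This region met the minimum of 3 lists through young lists alone. The sign of its change in the main test was thus fixed, and no conclusion is drawn from the p-values. In the whole lists, 5 of 6 young and 1 of 6 aged ones held it, and the cause of this difference was not tested. A second intronic region 75.4 kb from the start (chr3:52343472-52344025) was called in 11 lists, with scores of 0.78, 0.69 and 1.18 for Young WT, −0.55, 0.38 and −0.52 for Young Mlkl-/-, 1.27, 0.69 and 0.95 for Aged WT, and 0.54, 0.70 and 0.80 for the Aged Mlkl-/- libraries. The 3 Young Mlkl-/- values were the lowest of all, and the age change was 0.50 ± 0.20 over both genotypes (adjusted p = 0.144), 0.09 ± 0.29 in WT and 0.91 ± 0.29 in Mlkl-/-. Adding list length as a covariate gave 0.29 ± 0.27 (adjusted p = 0.643).

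Sirt2 held the only member region called in all 6 aged and in none of the 6 young lists, against 0.841% of all regions. It lay in an intron 14.3 kb from the start (chr7:28780751-28781756), and its summits were weak in every aged list, among the top 41.8 to 53.5% of regions. Only 1 of the lists of equal length (Aged Mlkl-/- 1) kept it, so it was not tested by rank. With lists of unequal length the change was 0.72 ± 0.22 (adjusted p = 0.0375). In that setting the aged lists are longer and they alone held the region. The sign of the change was thus fixed, and no conclusion is drawn from the p-value. The neighbouring region 13.5 kb from the start (chr7:28779977-28780647), 103 bp away, was called in 4 of 6 young lists and in 2 of 6 aged lists. In this region the normal scores were 0.39, 0.65 and −0.54 in Young WT and 0.63, −0.57 and −0.52 in Young Mlkl-/-. No aged list of equal length held it. Its age change was −0.56 ± 0.25 (unadjusted p = 0.0414, adjusted p = 0.207), or −0.34 ± 0.31 with Y summits as a covariate (adjusted p = 0.584). It met the minimum of 3 lists through young lists alone, so its sign in the main test was fixed. In WT, whole-list calls of the 2 regions thus leaned to opposite ages within the gene. In Mlkl-/- the region at 13.5 kb had as many calls at both ages.

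**Figure D3:**
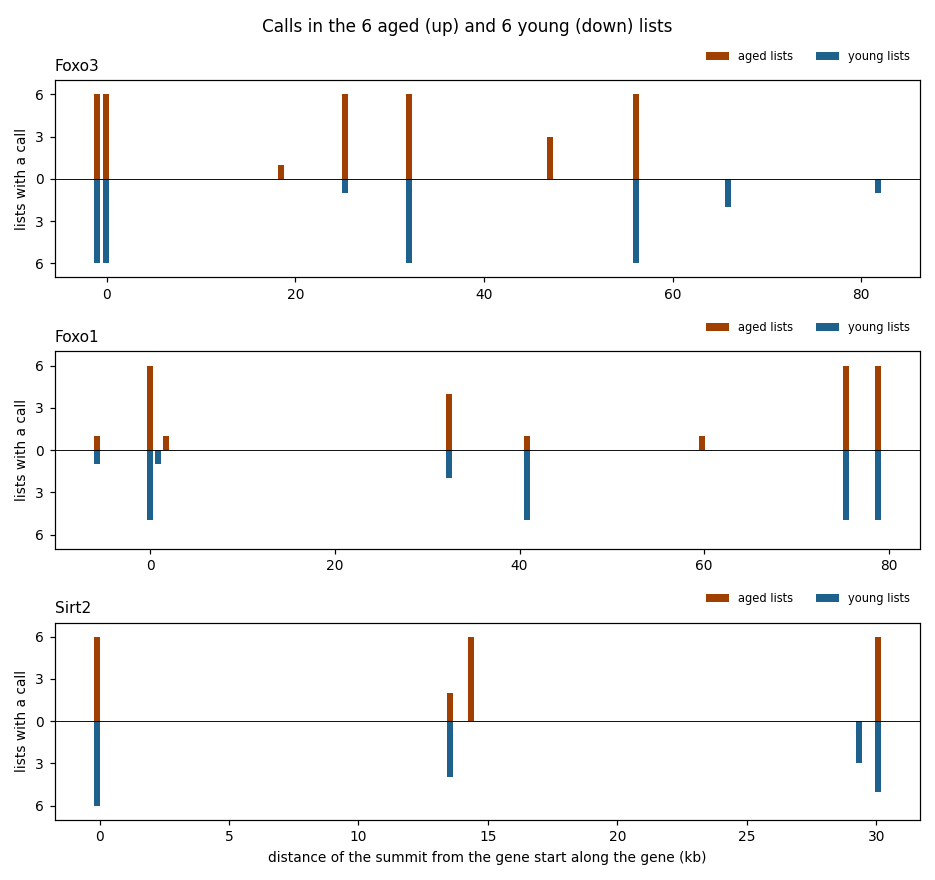
Number of the 6 aged lists (upward bars) and of the 6 young lists (downward bars) with a call in each region of Foxo3, Foxo1 and Sirt2, against the distance of the summit from the gene start in kb. The region at 25.3 kb in Foxo3 stands at 6 aged and 1 young list, that at 40.8 kb in Foxo1 at 1 aged and 5 young lists and that at 14.3 kb in Sirt2 at 6 aged and 0 young lists.

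Near Keap1, a region 2.19 kb upstream (chr9:21241274-21241825) was found in 2 young lists against 5 aged ones. Its scores were −0.54, −0.53 and −0.54 for Young WT, −0.55, 0.51 and −0.52 for Young Mlkl-/-, 0.62, −0.53 and 0.55 for Aged WT, and 0.31, 0.69 and 0.31 for the Aged Mlkl-/- libraries, with an age change of 0.69 ± 0.27 (unadjusted p = 0.0185, adjusted p = 0.125). Both ages held libraries with and without the region. In lists of equal length 1 young and 5 aged ones held it. It met the minimum of 3 lists only through aged lists, so no conclusion is drawn from its p-values. The change was 0.36 ± 0.27 at a score minimum of 5 (adjusted p = 0.487) and 0.39 ± 0.35 with list length as a covariate (adjusted p = 0.635). A region 18.7 kb from the Keap1 start, beyond the end of the gene (chr9:21220404-21220961), was called in every list except Young Mlkl-/- 3, with an age change of 0.49 ± 0.23 (unadjusted p = 0.0474, adjusted p = 0.22). It was 0.24 ± 0.16 without that library (adjusted p = 0.418), 0.15 ± 0.29 with list length as a covariate (adjusted p = 0.857) and 0.77 ± 0.28 with Y summits as a covariate (adjusted p = 0.133). At Txnip, a region 6.52 kb upstream (chr3:96551153-96551694) was called in 0 of 6 young lists, in 1 of 3 Aged WT lists and in 3 of 3 Aged Mlkl-/- lists, and in 2 lists of equal length. No change past the threshold was seen at Nfe2l2, Sirt1, Sirt6 or Sirt7 either, and the age changes of their tested regions lay between −0.33 and 0.16.

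**Figure D4:**
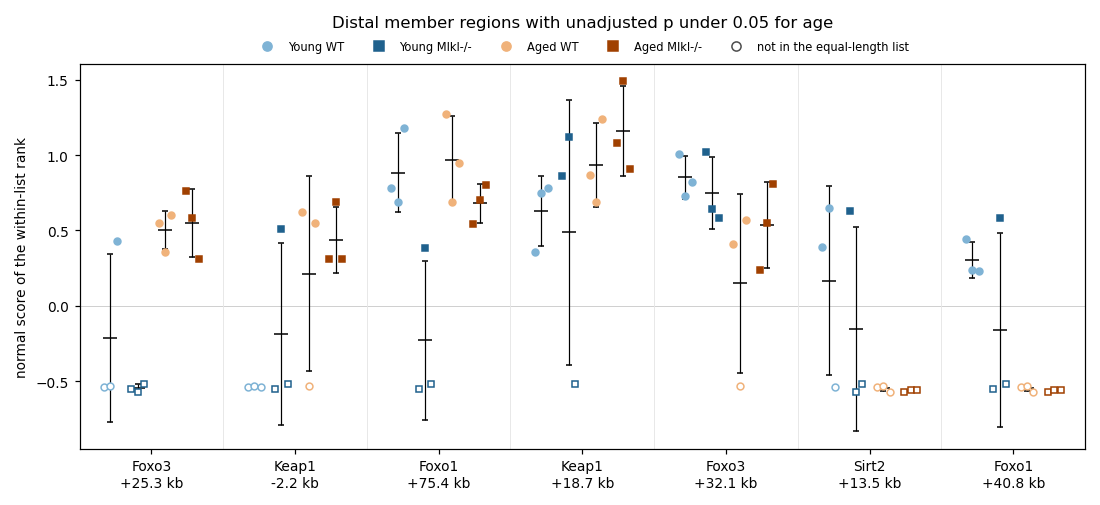
Normal scores of the 7 member regions with an unadjusted p under 0.05 for age, with 3 libraries per group as points (open where the region was not in the list of equal length), and the mean and SD as bars. At the Foxo3 region at 25.3 kb the 6 aged points lie between 0.31 and 0.76, and 5 of the 6 young points lie at the value of regions not called.

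Calls that were complete in 1 age and absent in the other were few. In WT, 1 of 50 members (the Sirt2 region at 14.3 kb) was called in 3 of 3 aged and 0 of 3 young lists, against 3.61% of all regions. In Mlkl-/-, 3 of 50 were (the same Sirt2 region, the Foxo3 region at 25.3 kb and the Txnip region 6.52 kb upstream), against 2.66%. The reverse pattern was seen in 0 members, against 0.524% of all regions in WT and 0.321% in Mlkl-/-, and no member was called in 6 young and 0 aged lists, against 0.0549%.

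Between genotypes no region passed the threshold, at either age or with the ages joined, for the members (0 of 30) or for all regions (0%, limma, lowest adjusted p 0.499, 0.625 and 0.763, with 2034, 1930 and 2356 regions at an unadjusted p under 0.05). Foxo1 and Foxo3 held 5 tested regions each. In the unadjusted test 3 of 30 members, all in these genes, differed by genotype over both ages, against 6.22% of all regions. At 3 months 4 of 30 did, against 5.37%, of which 2 were in Foxo1 and 2 at Txnip: the Txnip start (−0.38 ± 0.17, adjusted p = 0.869) and the region 6.86 kb from it (−0.38 ± 0.17, adjusted p = 0.869). At 18 months 0 of 30 did, against 5.09%. The Foxo1 region at 75.4 kb was lower in Mlkl-/- by 0.70 ± 0.20 (unadjusted p = 0.00266, adjusted p = 0.763), and the difference was −1.11 ± 0.29 at 3 months and −0.29 ± 0.29 at 18 months. The Foxo3 region at 56.1 kb (chr10:42220372-42220961) differed by −0.57 ± 0.24 (adjusted p = 0.763), with scores of 0.66, 0.27, 0.84, 0.78, 0.43 and 0.63 in the 6 WT and of 0.26, −0.57, 0.44, 0.23, 0.41 and −0.56 in the 6 Mlkl-/- libraries. The Foxo1 region at 78.8 kb (chr3:52346873-52347432), in the UTR of exon 3, differed the other way, by 0.67 ± 0.26 (adjusted p = 0.763), or by 0.44 ± 0.20 with lists of unequal length (adjusted p = 0.839). There the WT scores were −0.54, 0.49, −0.54, 0.22, −0.53 and 0.96, and the Mlkl-/- scores were 0.51, 0.68, 0.65, 0.65, 0.72 and 0.88. By calls, 13 members were found in more Mlkl-/- lists, 12 in more WT lists and 25 in as many, and 0 members were complete in 1 genotype and absent in the other at either age, against 1.12% of all regions.

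The age change did not differ between genotypes past the threshold in any member or in any other region (0%, lowest adjusted p 0.965, with 1816 regions at an unadjusted p under 0.05). Of the 2 members with an unadjusted p under 0.05 for this difference, the Sirt6 start had an age difference of −0.57 ± 0.18 in WT (adjusted p = 0.112) and of 0.06 ± 0.18 in Mlkl-/-, a difference of 0.63 ± 0.26 (95% interval 0.09 to 1.17, adjusted p = 0.965). The other was a region 6.86 kb from the Txnip start, beyond the end of that gene and in an intron of Gm15441 (chr3:96564542-96565100), named after its values were seen. It scored 1.75, 1.66 and 1.62 for Young WT, 1.45, 1.21 and 1.22 for Young Mlkl-/-, 1.60, 1.14 and 1.33 for Aged WT, and 1.35, 1.89 and 1.77 for the Aged Mlkl-/- libraries, and the difference was 0.70 ± 0.24 (95% interval 0.19 to 1.21, adjusted p = 0.965). These intervals are not adjusted for the number of regions.

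Apart from the 9 starts, 30 member regions, some of them described above, had neither an unadjusted p under 0.05 over both strata nor calls complete in 1 group and absent in another. Of these, 14 were tested, with age changes between −0.33 and 0.36 and genotype differences between −0.22 and 0.29. They include the common Sirt1 start, the regions close upstream of Sirt1 and Foxo3 and the Txnip region at 6.86 kb, and further the strong regions 5.9 kb upstream of Sirt6 (1.71 ± 0.24, SD over 12 libraries, in an intron of Ankrd24) and 19 and 21.6 kb into Nfe2l2 (1.0 ± 0.26 and 0.97 ± 0.20), which were called in all 12 lists. At the limit of 10 kb, the last region inside reached 9.33 kb from Keap1 (11 lists) and the first outside reached 10.42 kb from Sirt7 (1 list).

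Around the summits (201 bp), 9 of 50 members held an antioxidant response element, 6 an AP-1 motif, 5 a GATA motif, 4 an ETS motif (CCGGAAG), 3 an E-box, 3 a RUNX motif (TGTGGTT), 2 a FOXO motif, 1 an NRF1 motif (GCGCATGC) and 0 a CRE (TGACGTCA). The shares were 18.0% for the antioxidant response element and 4.0% for FOXO, against 11.9% and 2.76% of all 71006 regions, 12% for AP-1 against 10.3%, 10% for GATA against 9.28%, 8.0% for ETS against 4.54%, 6.0% for the E-box against 4.79%, 2.0% for NRF1 against 1.13%, 6.0% for RUNX against 10.4% and 0% for CRE against 0.894%. In the 200 bases before the outermost starts of 21938 protein-coding genes, the FOXO motif was present in 2.05%, the antioxidant response element in 8.57% and 2 or more E-boxes in 0.456%. The Sirt1 sequence shown lies before another start, so these shares are not its match. Before the outermost Sirt1 start 0 motifs were found. A single base pair difference in a motif would have gone uncounted.

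A further 59 genes of these pathways were counted as groups. Of their starts, 46 were called in all 12 lists and 6 had no call within 1 kb, and 150 regions were tested, of which 2 were higher and 1 was lower in aged HSCs (2.0%, against 2.71% of all regions). The median age change was −0.03. None passed by genotype. Among the regions past the threshold for age, those of Slc7a11 and Txnrd2 met the minimum of 3 lists only through lists of 1 age. The groups are not separate from the members: the start region of Mafg is the member region 8.37 kb upstream of Sirt7. All 5 sirtuin and FoxO paralogues and all 8 partners of NRF2 and KEAP1 had starts called in all 12 lists, with 0 of 14 and 0 of 21 regions past the threshold. The same held for the 3 superoxide and peroxide enzymes Sod1, Sod2 and Cat (0 of 5 regions). Among 16 FoxO target and upstream genes, 13 starts were called in all 12 lists and 0 of 39 regions passed, and among 5 genes of the sugar sensors and arrestins related to Txnip 2 starts were and 0 of 10 regions passed.

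At 16 NRF2 target, thioredoxin and glutathione genes, 12 starts were called in all 12 lists and 2 had no call, and of 50 tested regions 1 was higher and 1 lower. The higher one lay in an intron of Slc7a11, which encodes the cystine importer that feeds glutathione synthesis, 6.99 kb from the start (chr3:50436364-50436889). It was found in 1 young list and all 6 aged ones, and the aged scores of 0.57, 0.49 and 0.69 in WT and 1.30, 0.92 and 0.92 in Mlkl-/- exceeded the only young call of 0.30 in Young Mlkl-/- 2 (change 1.21 ± 0.22, adjusted p = 0.00248). The lower one lay in an intron of Txnrd2, the mitochondrial thioredoxin reductase, 33.8 kb from the start (chr16:18459907-18460478). Among the whole lists, all 6 young and 4 aged ones held it. Its scores ran from 0.40 to 0.93 in the 6 young libraries, and of the 6 aged lists of equal length only Aged Mlkl-/- 1 held it, at 0.26 (change −1.16 ± 0.22, adjusted p = 0.00341). The Slc7a11 region met the minimum of 3 lists only through aged lists and the Txnrd2 region only through young lists. No conclusion is drawn from the p-values of these regions. The outermost start of Gsr, glutathione reductase, which was named after its values were seen, had calls in 0 young and 6 aged lists (change 0.60 ± 0.21, adjusted p = 0.0856). This start met the minimum through aged lists alone, which fixed the sign of its change. It belongs to a transcript annotated as non-coding, and the start of the protein-coding Gsr transcript was called in all 12 lists. Of 11 regions at 6 genes of NAD supply and use, 1 passed, in an intron of Nmnat3, an enzyme that makes NAD, 46.0 kb from the start (chr9:98333045-98333735). It was called in all 12 lists, with scores from 1.12 to 1.82 in young and from 1.75 to 2.30 in aged libraries (change 0.65 ± 0.13, adjusted p = 0.00593). Leaving out Aged Mlkl-/- 1 ended the call at Slc7a11 (adjusted p = 0.0105). At Txnrd2 it ended without Young WT 2, Young Mlkl-/- 1 or Aged Mlkl-/- 2 (adjusted p from 0.0105 to 0.0115), and at Nmnat3 without any of the libraries but Young Mlkl-/- 2, Aged WT 2 and Aged Mlkl-/- 3 (adjusted p from 0.0134 to 0.0222). With list length as a covariate none of the 3 passed, and the changes were 0.95 at Slc7a11 (adjusted p = 0.10), −1.26 at Txnrd2 (adjusted p = 0.0416) and 0.42 at Nmnat3 (adjusted p = 0.201).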

How the data were processed

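ATAC-seq was measured in 12 HSC libraries, 3 in each group named by the labels. The authors mapped reads to mm10 with Bowtie2 2.5.3 and called peaks in each library with MACS2 2.2.7.1. The submitters' processing notes also name bedtools 2.31.0 and edgeR 3.30.3. Each deposited list gives summits with a score, the −log10 of the q-value, from a minimum of 2.00. The study's methods state a q-value cutoff of 0.001, so summits with a score of at least 3 on chromosomes 1 to 19, X and Y were used. Replicates were not pooled. The lists hold no counts, so the count model of the study could not be run and counting error cannot be stated.

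Windows of 250 bp on each side were merged over the lists, and a region was called in a list that had a summit in it. Genes were taken from GENCODE vM21, and a gene start is the outermost 5′ end. For ranks, each list was reduced to its 35714 highest summits (ties under a fixed seed), regions were ranked by their highest score, and ranks became normal scores. The 37890 regions called in at least 3 of these lists were tested with limma 3.58.1 (lmFit, contrasts.fit, eBayes with trend) in R 4.3.3, in 1 fit of 4 groups and 7 contrasts. The threshold was 0.01 after Benjamini-Hochberg adjustment of p-values. The procedure was tested on simulated data. Other work used Python 3.11.15, numpy 2.4.6, pandas 2.3.3, scipy 1.17.1 and pysam 0.24.0. Motifs were searched by exact match on both strands.

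Members, gene lists and motifs were chosen with earlier results of these data known. All starts are named, and other member regions where an unadjusted p for age or genotype over both strata was under 0.05 or calls were complete in 1 group and absent in the group of other age or genotype. Pathway genes are named where a region passed 0.01. The values of some single marker genes are not reported here. Replicate numbers did not pair the samples: of 18 same-numbered pairs, 1 had a correlation of deviations from group means over 0.1 (range −0.301 to 0.128). The alternatives changed list length, score minimum, window, minimum of lists, rank scale, samples in the fit, threshold, seed, covariates, flank and libraries. The 500 bp window was added after the data had been seen. RefSeq promoter entries exist for all 9 members, and the sequences printed were read from the GRCm38.p6 genome.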

Additional observations from a re-analysis of the deposited data

How the results depend on the processing

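No member region passed the threshold in any of the 7 contrasts under the alternatives run, with 2 exceptions for age over both genotypes: 1 region, in Foxo3 at 25.3 kb, passed with lists of unequal length and at an adjusted p under 0.05. That region met the minimum of 3 lists only through aged lists, so no conclusion is drawn from its passing. Genotype and its difference by age gave 0 regions of any kind under every alternative. The count of all regions past the threshold for age over both genotypes (1026) was 2030 with unequal lists, 2934 at an adjusted p under 0.05, 64 with list length as a covariate, 329 with Y summits as a covariate and 189 in the 9 libraries that share a file-name tag. For age in WT (73) and in Mlkl-/- (57) the counts were 295 and 249 with unequal lists, 114 and 119 with a minimum of 1 list, 134 and 97 with a minimum of 6, 0 and 0 with percentiles, 0 and 1 in separate fits, 725 and 565 at an adjusted p under 0.05, 27 and 17 with the replicate block, 4 and 9 with list length, 43 and 5 with Y summits and 1 and 4 in the tagged libraries, and 45 in WT with windows of 100 bp. Leaving out 1 library gave 667 to 1047, 1 to 95 and 5 to 61 regions, respectively. These counts moved by over 1.5 times over both genotypes without Aged Mlkl-/- 1 (667) or 2 (683), in WT without any WT or Aged Mlkl-/- library (1 without Aged WT 1), and in Mlkl-/- without any Mlkl-/- library, Aged WT 1 or Aged WT 3 (5 without Aged Mlkl-/- 1). The replicate block (777 over both genotypes, 0 members) changed no member's call and ended that of Nmnat3 (adjusted p = 0.0117, 0.0117 to 0.201 over the alternatives that ended it), and 4 of 12 samples correlated best with a sample of their own number. With 50 kb around the genes, 40 regions were called in all 12 lists, against 18. Of 514 region values under alternatives, 478 kept their direction and side of the threshold. The age change turned at 5 starts, none of them past the threshold: Foxo3 (0.35) with 500 bp windows (−0.05), Foxo1 (0.25, −0.08) and Nfe2l2 (−0.09, 0.03) with list length, Txnip (0.00) and Keap1 (−0.13) with Y summits, and Keap1 in the tagged libraries (−0.08) and without Young Mlkl-/- 1 (−0.02), Young Mlkl-/- 2 (−0.03) or Aged WT 3 (−0.01), over a range of −0.03 to 0.15 when 1 library was left out. The Slc7a11 region passed in 22 of 26 alternatives, that of Txnrd2 in 19 and that of Nmnat3 in 12. In the main setting the Slc7a11 and Txnrd2 regions met the minimum of 3 lists only through 1 age, so no conclusion is drawn from their counts. The causes were not tested. Unknown depth and 3 libraries per group limit every comparison.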
